A study of Mus musculus with 21 samples.

Results

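Macrophages that receive an inflammatory and a tissue-repair cytokine at once can respond with more or less than the product of the separate responses. This departure from additivity was measured at 6 h for tumour necrosis factor (TNF) and interleukin 4 with interleukin 13 (IL-4 and IL-13, together IL). It rests on 12 of the 21 libraries of the series, in 4 groups of 3. Ctrl_0h held untreated cells at 0 h, and IL_6h, TNF_6h and IL_TNF_6h held cells treated for 6 h with IL, with TNF or with all 3 cytokines, each at 10 ng/ml. In every group the cells were bone-marrow-derived macrophages, grown in M-CSF from the marrow of wild-type C57BL/6 mice aged 8 to 10 weeks. Total RNA was sequenced. Whether replicates are separate cultures or animals is not in the labels, and p values cover no more than the scatter of these libraries, which may be technical.

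TNF is released by activated macrophages and acts through TNF receptors on the transcription factor NF-kB and on stress kinases, which switch on cytokines, chemokines and adhesion molecules. It also makes macrophages secrete interferon, which feeds back through its receptor onto antiviral and antigen-presentation genes. IL-4 and IL-13 act through the IL-4 receptor alpha chain and Janus kinases on STAT6, the driver of alternative activation with Arg1, Retnla and Chil3 as its classic products.

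On the log2 scale 2 treatments are additive when their fold changes multiply. The interaction of a gene is the TNF effect with IL (IL_TNF_6h against IL_6h) minus the TNF effect without IL (TNF_6h against Ctrl_0h). A negative interaction means that the combination lay below that product, a positive one above it. No untreated group at 6 h was used, so TNF_6h against Ctrl_0h carries 6 h in culture and IL_TNF_6h against IL_6h does not. An effect of those 6 h enters the interaction with its sign turned, and the part it has in any value below cannot be told apart. The threshold for a call was an adjusted p of 0.05 in the quasi-likelihood F test of edgeR, over all 15581 genes tested. Levels are given in CPM, the counts of a gene scaled to a common library size, as means ± SD with n = 3, and interactions are log2 values ± standard error.

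Depth ran from 28.1 to 42.0 M counts a library. Ctrl_0h replicate 2 had counts in 27761 genes, the 11 others in 16996 to 20631. Replicates differed by a chi-square per degree of freedom of 8.36 to 17.6, but of 80.3 to 147 in the pairs with Ctrl_0h replicate 2, IL_6h replicate 2 or IL_TNF_6h replicate 3. Fibroblast markers summed to 8.15, 13.0 and 10.6 CPM in these 3 libraries and to 1.39 to 3.95 in the others. Ctrl_0h replicate 2 also had 12.8 CPM of erythroid and 8.05 of eosinophil and mast cell markers. The part of such cells in the results was not tested. All 10 macrophage identity genes had counts in every group. They summed to 41107 to 44271 CPM in TNF_6h and to 18576 to 27232 in the other groups. Ifi202b, an interferon-inducible gene, was at 30.3 to 64.2 CPM in all libraries that received IL and had no counts in Ctrl_0h and TNF_6h. A difference of the same factor between these library sets drops out of the interaction. It does not drop out of IL_TNF_6h against TNF_6h or of IL_6h against Ctrl_0h, and its part there was not tested. A difference between the sets in the response to TNF would not drop out of the interaction. Since the sets coincide with IL, it cannot be told apart from an effect of IL.

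Departures from the product were common and ran in both directions. The interaction was negative in 1422 genes (9.13%) and positive in 1444 (9.27%), together 18.4% of genes tested. It reached at least 2-fold in 710 negative and 1016 positive genes, and the median size of called interactions was 1.18. Without Ctrl_0h replicate 2 the counts were 1243 and 1283, with 78.2% of the calls kept and 0 turned round. The split depends on the library that the scaling takes as reference. With TNF_24h replicate 3 as reference the share of positive calls fell from 50.4% to 41.3%, with 1859 negative and 1308 positive genes. The same reference is taken when IL_6h replicate 2, IL_TNF_6h replicate 3 or all 3 deviating libraries are left out. Without these 3 there were 1797 negative and 1197 positive genes and the median over all genes moved from -0.0029 to -0.13, and with the reference kept 1416 and 1368.

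Most called interactions were in genes called in TNF_6h against Ctrl_0h, which carries 6 h in culture, and not called in IL_TNF_6h against IL_6h. Of the negative genes, 805 (56.6%) were raised in TNF_6h against Ctrl_0h and not called with IL, and 254 (17.9%) were raised in both. Of the positive genes, 1125 (77.9%) were lowered in TNF_6h against Ctrl_0h and not called with IL. Genes called only in the comparison with IL were fewer: 213 of the negative genes were lowered and 112 of the positive genes raised in that comparison alone. TNF effects called in opposite directions were found in 76 negative and 56 positive genes, of which 61 and 39 were also called so without Ctrl_0h replicate 2. As background, TNF_6h against Ctrl_0h raised 2928 genes (18.8%) and lowered 3189 (20.5%), while IL_TNF_6h against IL_6h raised 1105 (7.09%) and lowered 1088 (6.98%).

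**Figure D1:**
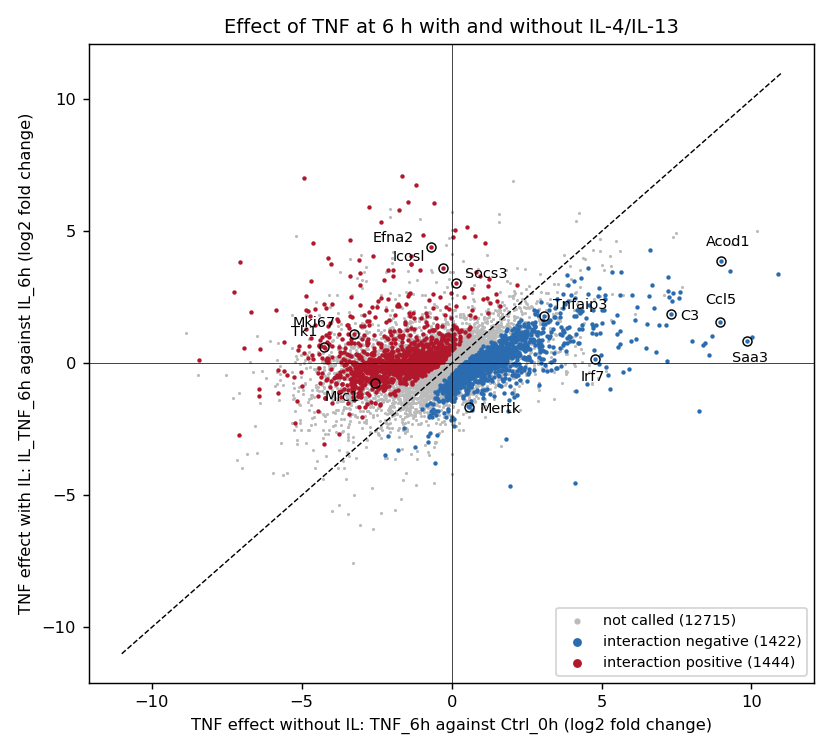
TNF effect with IL (IL_TNF_6h against IL_6h, y axis) against the TNF effect without IL (TNF_6h against Ctrl_0h, x axis), both as log2 fold changes, for each of the 15581 genes tested. The dashed line marks equal effects; the 1422 negative interactions lie below it, mostly raised along the x axis and near 0 along the y axis, and the 1444 positive ones lie above it.

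The most negative interaction belonged to Saa3, an acute-phase protein of inflamed tissue (ENSMUSG00000040026, chr7:46711998-46719615 in GRCm38.p6). It had 3.50, 2.40 and 1.14 CPM in Ctrl_0h, 48.6, 28.9 and 44.2 in IL_6h, 2393, 2166 and 1958 in TNF_6h, and 84.3, 76.9 and 59.6 in IL_TNF_6h. TNF without IL thus stood far above the 9 other libraries, and the combination lay just above IL alone without overlap. The interaction was -8.98 ± 0.44 (adjusted p = 6.89e-11), from a TNF effect of 9.84 without IL and of 0.86 with it.

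Ccl5, a chemokine for T cells and monocytes (ENSMUSG00000035042, chr11:83525778-83530518), showed the same order. It had 2.59, 1.45 and 1.73 CPM in Ctrl_0h, 26.0, 28.9 and 23.7 in IL_6h, 1105, 932 and 824 in TNF_6h, and 73.7, 70.1 and 90.1 in IL_TNF_6h. No 2 groups overlapped, and each library with all 3 cytokines was an order of magnitude below each with TNF alone. The interaction was -7.36 ± 0.36. Ass1, which makes the arginine precursor argininosuccinate, had 238 ± 8.48 CPM in TNF_6h and 60 ± 10.7 in IL_TNF_6h, with an interaction of -5.23 ± 0.23. Ms4a4c and the growth regulator Slfn1 followed with -6.41 ± 1.03 and -5.73 ± 1.15. Il18bp, the soluble inhibitor of IL-18, had 66.2 ± 4.72 CPM in TNF_6h and was not called between IL_6h (31.4 ± 2.09) and IL_TNF_6h (28.7 ± 2.14, adjusted p = 0.864), with an interaction of -5.28 ± 0.40.

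Irf7, the interferon regulatory factor that amplifies the interferon response (ENSMUSG00000025498, chr7:141263183-141266499), had a TNF effect that was called without IL and not with it. Its levels were 128, 91.0 and 124 CPM in Ctrl_0h, 608, 450 and 550 in IL_6h, 3532, 3015 and 3001 in TNF_6h, and 633, 645 and 519 in IL_TNF_6h. The IL_6h and IL_TNF_6h libraries overlapped, and those of TNF_6h stood above all others. The interaction was -4.64 ± 0.68 (adjusted p = 7.99e-05), while the TNF effect with IL was 0.16 (adjusted p = 0.914).

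A negative interaction did not always mean a low level in the combination. C3, the central complement component (ENSMUSG00000024164, chr17:57203967-57228136), had 22.9 ± 4.72 CPM in Ctrl_0h, 759 ± 145 in IL_6h, 3670 ± 171 in TNF_6h and 2754 ± 458 in IL_TNF_6h. Its level was high in all 3 treated groups, and the interaction of -5.46 ± 0.25 records that 2 large increases did not multiply. Mmp14, a membrane-bound matrix protease, had 564 ± 62.4 CPM in TNF_6h and 651 ± 150 in IL_TNF_6h. Its interaction was -3.95 ± 0.59, and -5.18 without Ctrl_0h replicate 2, where it had 8.35 CPM against 2.00 and 1.21 in the others.

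Acod1, the mitochondrial enzyme that makes itaconate (ENSMUSG00000022126, chr14:103047012-103056573), combined a strongly negative interaction with its highest level in the combination. It had 1.04, 1.05 and 1.11 CPM in Ctrl_0h, 92.2, 89.1 and 90.1 in IL_6h, 541, 556 and 519 in TNF_6h, and 1382, 1266 and 1393 in IL_TNF_6h. The groups did not overlap and rose in that order. The interaction was -5.08 ± 0.28. On the linear scale, where additive means that the increases in CPM sum, the combination exceeded the sum of 628 CPM by 719 CPM. Such a change of sign with the scale was found in 90 of the 1422 negative genes (6.33%) and in 21 of the 1444 positive ones, by group means and with no test. Tnfaip3 and Tnfrsf1b, described below, are among the former with excesses of 115 and 140 CPM. Mrc1 is among the latter, with 292 CPM less than the sum.

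The interferon-stimulated genes as a list showed negative interactions and no positive one. All 32 tested were raised in TNF_6h against Ctrl_0h (18.8% of all genes) and 20 were raised by TNF with IL (7.09%). The interaction was negative in 22 of the 32, where 9.13% of all genes were, with a median of -1.96. It was called in 15 without Ctrl_0h replicate 2 and in 14 without the 3 deviating libraries with the reference kept. Level with level, 23 of the 32 were lower in IL_TNF_6h than in TNF_6h, where 27.5% of all genes were. The combination lay between the single treatments and above IL_6h in 13 of the 32, against 1.78% of all genes. In these bulk libraries fewer responding cells and less RNA in each cell cannot be told apart. Markers of T and NK cells summed to 28.2 to 31.4 CPM in TNF_6h and 3.99 to 7.37 in the other groups, of which Cd4 made 29.1 ± 1.66 CPM in TNF_6h, with Cd3g and Trac at 0 there. The part of such cells in the interferon genes was not tested.

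Isg20, an antiviral exonuclease, had 6.07, 4.26 and 6.49 CPM in Ctrl_0h, 5.63, 3.47 and 5.23 in IL_6h, 182, 164 and 172 in TNF_6h, and 11.8, 11.4 and 8.37 in IL_TNF_6h. Only the 3 libraries with TNF alone were high. Its interaction was -3.81 ± 0.69. Isg15, a ubiquitin-like protein attached to targets after interferon, had 595 ± 47.9 CPM in TNF_6h and 90.8 ± 8.07 in IL_TNF_6h, with an interaction of -2.33 ± 0.73 that was not called without Ctrl_0h replicate 2 (adjusted p = 0.063). Usp18, the protease that removes Isg15 and dampens the interferon receptor, had 159 ± 2.58 and 74.4 ± 0.989 CPM and -2.13 ± 0.21. Zbp1, a sensor of nucleic acids in cell death, had 369 ± 25.2 and 112 ± 4.13 CPM and -3.70 ± 0.57. Bst2, which tethers budding viruses, had 2257 ± 196 and 624 ± 143 CPM and -2.17 ± 0.44. Cxcl10, the chemokine named among the markers, lay between the single treatments with 56.9 ± 3.14 CPM against 199 ± 9.84 in TNF_6h and 3.38 ± 1.29 in IL_6h, and its interaction of -1.23 ± 0.75 was not called (adjusted p = 0.28). The transcription factor Stat2 had an interaction of -2.23 (adjusted p = 0.00019).

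Promoter sequences of genes with strong departures are shown with the letters of 2 motifs marked. The interferon-type motif is GAAA followed after 2 bases by GAAA, the core of the element of interferon regulatory factors. The STAT6-type motif is TTC followed after 4 bases by GAA. Each run gives the 160 bases before the start that comes first in the RefSeq promoter table for the gene in GRCm38.p6. For Saa3, Ifit1bl1, Apol7c and Ccl17 that start lies inside the span RefSeq gives for the whole gene, so it is not the gene's outermost start. Runs are written 5′ to 3′ on the gene's strand, with matches on either strand in capitals. The first 3 are the promoters with an interferon-type match among the 12 genes with the most negative interactions. The last 2 are those with a STAT6-type match among the 12 genes furthest above both single treatments. The runs shown were thus the ones with a match, and the other promoters found for these genes held neither motif.
Saa3, chr7:46715677-46715836, minus strand: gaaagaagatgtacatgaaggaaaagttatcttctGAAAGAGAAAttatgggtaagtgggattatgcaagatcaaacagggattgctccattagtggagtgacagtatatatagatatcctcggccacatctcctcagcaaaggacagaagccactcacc
Ifit1bl1, chr19:34601969-34602128, minus strand: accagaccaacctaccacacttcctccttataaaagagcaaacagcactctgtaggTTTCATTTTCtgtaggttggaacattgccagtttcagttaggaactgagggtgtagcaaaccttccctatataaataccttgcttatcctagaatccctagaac
Apol9a, chr15:77411081-77411240, minus strand: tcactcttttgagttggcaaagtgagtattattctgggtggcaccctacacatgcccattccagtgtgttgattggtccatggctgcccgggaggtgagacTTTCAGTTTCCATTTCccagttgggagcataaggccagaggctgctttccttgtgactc
Apol7c, chr15:77533316-77533475, minus strand: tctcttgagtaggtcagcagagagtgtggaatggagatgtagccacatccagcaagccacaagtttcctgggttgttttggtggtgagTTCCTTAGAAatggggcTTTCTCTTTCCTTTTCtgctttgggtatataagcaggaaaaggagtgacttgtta
Ccl17, chr8:94810293-94810452, plus strand: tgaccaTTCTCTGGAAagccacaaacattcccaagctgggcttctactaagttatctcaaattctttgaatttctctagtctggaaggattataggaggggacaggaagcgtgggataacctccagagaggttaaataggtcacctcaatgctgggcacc

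Within these windows Saa3 and Ifit1bl1 held 1 interferon-type match each and Apol9a 2 that overlap. Apol7c held 2 overlapping interferon-type matches and a STAT6-type match beside them, and Ccl17 a STAT6-type match. Over the full promoters of 300 bases, from 250 before to 50 after the start, the interferon-type motif stood in 3 of the 11 promoters found for the 12 genes with the most negative interactions, beside 3.49% of all 27025 promoters in the table. The STAT6-type motif stood in 0 of these 11 and in 6.99% of all. Of the 10 promoters found for the 12 genes furthest above both single treatments, 2 held the STAT6-type and 1 the interferon-type motif. An NF-kB-type run, GGG followed after 5 bases by CC, stood in 50.4% of all promoters and in 8 of the 11. A match is a description of letters and not a bound site.

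Ifit1bl1, of the interferon-induced tetratricopeptide family, had 0.561, 0.304 and 1.37 CPM in Ctrl_0h, 1.19, 2.61 and 1.87 in IL_6h, 49.5, 53.9 and 50.4 in TNF_6h, and 4.90, 5.84 and 6.81 in IL_TNF_6h. Its interaction was -4.47 ± 0.94. Apol9a, an interferon-induced apolipoprotein L, had 44.3 ± 3.21 CPM in TNF_6h and 2.53 ± 0.317 in IL_TNF_6h, with an interaction of -4.40 ± 0.88. Both belong to families of near-identical copies, as do Ms4a4c, Slfn1 and the Gbp and H2-Q genes, so reads may be split between copies.

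The guanylate-binding proteins and immunity-related GTPases, which attack vacuoles of intracellular microbes, formed a list of 16 tested genes. TNF without IL raised all 16 (18.8% of all genes) and TNF with IL raised 14 (7.09%). The interaction was negative in 10, where 9.13% of all genes were, with a median of -1.88. It was negative in 9 without Ctrl_0h replicate 2, but in 5 without the 3 deviating libraries with the reference kept. Level with level, 10 were lower in IL_TNF_6h than in TNF_6h and 2 higher, where 27.5% of all genes were lower and 29.7% higher. Gbp2 had 258 ± 12.3 CPM in TNF_6h and 324 ± 36.9 in IL_TNF_6h, and its interaction was -1.89 ± 0.26. Gbp7 was the single member above both, with 52.3, 60.1 and 72.3 CPM in IL_TNF_6h against 24.0, 26.9 and 24.7 in TNF_6h and 6.58, 14.4 and 7.47 in IL_6h, and its interaction was not called (adjusted p = 0.763). Ifi47 lay between, with 75.1 CPM against 239 in TNF_6h and 22.3 in IL_6h, and an interaction of -1.87.

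Antigen presentation genes had negative interactions in both classes and no positive one. Of 18 tested class I and immunoproteasome genes, 18 were raised by TNF without IL (18.8% of all genes) and 12 with IL (7.09%). The interaction was negative in 14, where 9.13% of all genes were (14 without Ctrl_0h replicate 2), with a median of -1.43. B2m, the light chain of class I molecules, had 5600 ± 152 CPM in TNF_6h, 2875 ± 183 in IL_6h and 3362 ± 340 in IL_TNF_6h, with an interaction of -1.71 ± 0.20. Tap1, a subunit of the peptide transporter, had 546 ± 49.3 CPM in TNF_6h and 301 ± 54.2 in IL_TNF_6h, with -1.27 ± 0.33. H2-M2, a nonclassical class I gene, instead had 286 ± 16.5 and 363 ± 16.6 CPM, not called different (adjusted p = 0.2), and an interaction of -5.77 ± 0.39.

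In the class II pathway 8 of 12 tested genes had a negative interaction (9.13% of all genes), with and without Ctrl_0h replicate 2. A positive one was called in 0 of the 12 (9.27% of all genes). H2-Aa, the alpha chain of the I-A molecule, had 117, 73.1 and 92.1 CPM in Ctrl_0h, 330, 240 and 287 in IL_6h, 1461, 1313 and 1339 in TNF_6h, and 549, 502 and 421 in IL_TNF_6h. The combination lay between the single treatments, with no overlap with either. Its interaction was -3.08 ± 0.22 (adjusted p = 1.87e-08). H2-Ab1, H2-Eb1 and the invariant chain Cd74 were placed the same way, with interactions of -2.45, -2.93 and -2.38. Ciita, the transactivator that switches on these genes, was placed differently. It had 83, 61.5 and 82.8 CPM in IL_6h, 48.7, 44.8 and 58.0 in TNF_6h, and 188, 185 and 153 in IL_TNF_6h, above every library of the single treatments. Its interaction of -0.72 ± 0.26 was not called (adjusted p = 0.0588). Ctss, the protease that trims the invariant chain, had 8132 ± 168 CPM in TNF_6h, 4127 ± 237 in IL_6h and 3953 ± 55.3 in IL_TNF_6h, with -1.61 ± 0.15.

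**Figure D2:**
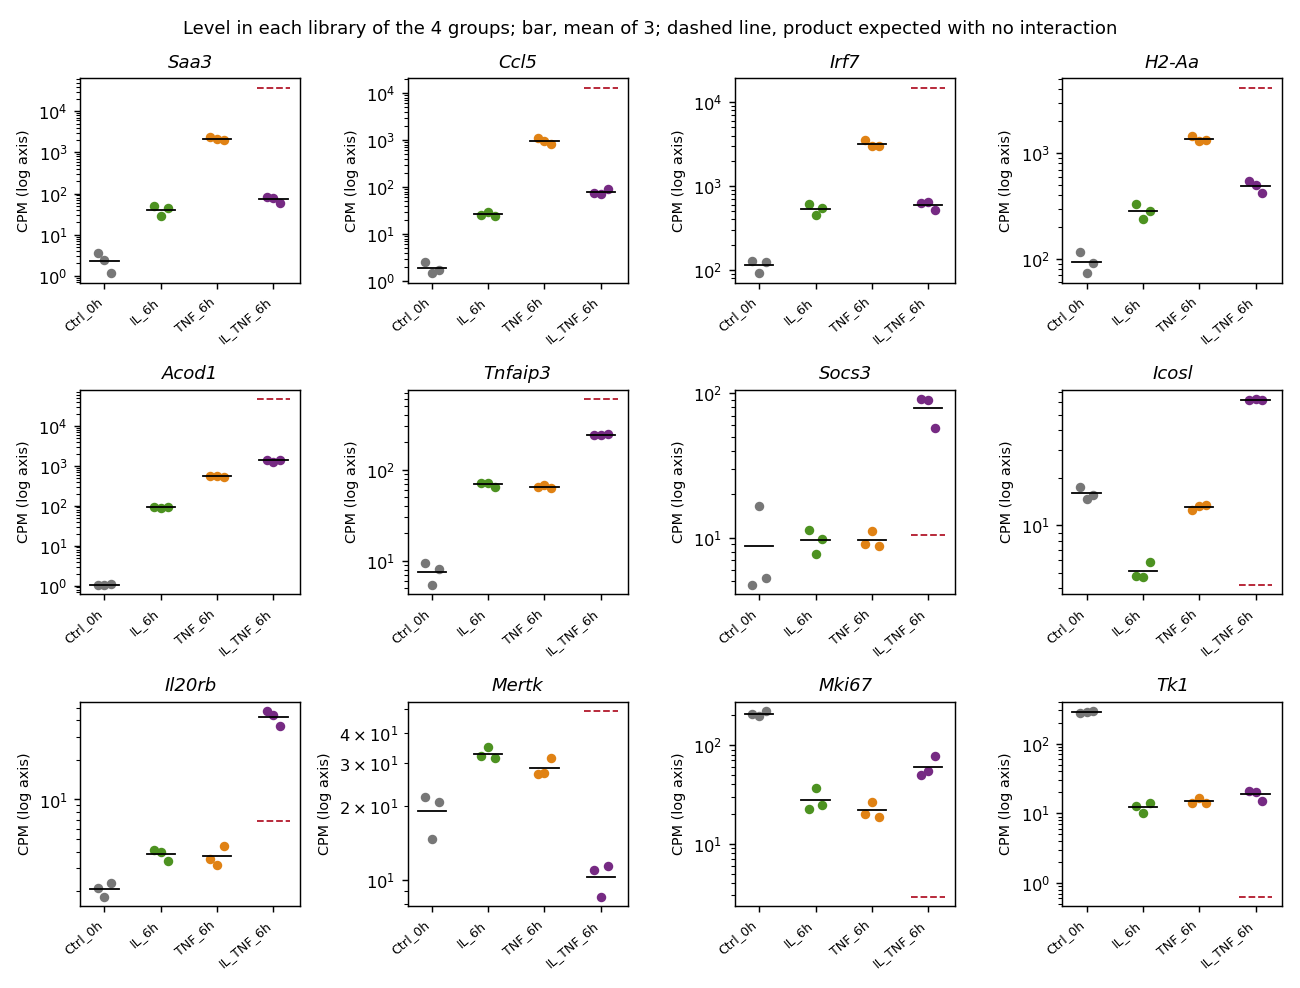
CPM on a log axis in each of the 12 libraries for 12 genes, with a bar at the mean of each group and a dashed line at the level expected if the fold changes of IL and TNF multiplied. Saa3, Ccl5, Irf7, H2-Aa, Acod1, Tnfaip3 and Mertk lie below the line in IL_TNF_6h, and Socs3, Icosl, Il20rb, Mki67 and Tk1 above it.

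Genes of the NF-kB and inflammatory list split between these patterns. TNF raised 27 of 33 tested genes without IL (18.8% of all genes) and 27 with IL (7.09%). The interaction was negative in 10, where 9.13% of all genes were, with a median of -0.48. It was positive in 4, a share near the 9.27% of all genes. Of the 33, 15 lay above both single treatments, where 3.32% of all genes did. Cd40, the co-stimulatory receptor that macrophages present to helper T cells, had 22.2, 18.8 and 18.1 CPM in Ctrl_0h, 75.1, 62.5 and 71.3 in IL_6h, 114, 94.7 and 94.7 in TNF_6h, and 400, 376 and 350 in IL_TNF_6h. The combination stood above every other library. The interaction was 0.07 ± 0.36 (adjusted p = 0.92), so the combination lay near the product of the 2 effects. Csf1, the growth factor of macrophages, and Ptges, which makes prostaglandin E2, were placed the same way, with 57.1 ± 3.25 and 42.7 ± 5.36 CPM in IL_TNF_6h and interactions of 0.17 ± 0.29 and 0.38 ± 0.41 that were not called. Icam1, an adhesion molecule for leukocytes, was above both with 1194 ± 163 CPM, against 512 ± 21 in TNF_6h and 241 ± 49 in IL_6h. Its interaction of -0.66 ± 0.22 was called, but not without Ctrl_0h replicate 2 (adjusted p = 0.10).

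Tnf itself (chr17:35199367-35202007) had 30.7, 25.4 and 23 CPM in Ctrl_0h, 30.7, 26.9 and 23.2 in IL_6h, 119, 130 and 111 in TNF_6h, and 218, 220 and 197 in IL_TNF_6h. The libraries of IL alone overlapped those of the control, and the combination exceeded TNF alone in every library. The interaction was 0.79 ± 0.21 (adjusted p = 0.0112). Mmp13, a collagenase, and Ccl2, a monocyte chemokine, were the other positive members whose calls held without Ctrl_0h replicate 2. Mmp13 had 37.1 ± 10.9 CPM in IL_6h, 4.47 ± 0.633 in TNF_6h and 80.7 ± 16.4 in IL_TNF_6h, with 1.24 ± 0.28. Ccl2 had 17.5 ± 2.95 CPM in Ctrl_0h, 7.82 ± 0.517 in TNF_6h, 30.6 ± 2.38 in IL_6h and 37.7 ± 1.23 in IL_TNF_6h, with 1.46 ± 0.19.

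Nos2, which makes nitric oxide, had 53.1, 49.5 and 46.4 CPM in TNF_6h and 24.9, 23.9 and 22 in IL_TNF_6h, with at most 0.96 in the libraries of IL_6h and Ctrl_0h. Its interaction moved with 1 library. It was -2.62 ± 1.11 and not called with all libraries (adjusted p = 0.111), and -9.11 and called without Ctrl_0h replicate 2 (adjusted p = 0.012), the only control library with counts of it. Il1b was above both with 17.1 ± 2.54 CPM against 5.48 ± 1.05 in TNF_6h and 2.30 ± 0.154 in IL_6h, and its interaction of -1.39 ± 0.62 was not called (adjusted p = 0.133). Without Ctrl_0h replicate 1 the log2 interaction of Il1b was -2.45 and called (adjusted p = 0.0201). Il6 stayed at 0.342 CPM or less in all 12 libraries. Sod2 and Traf1, classic NF-kB targets for superoxide removal and receptor signalling, had interactions of -1.07 and -1.10 and lay between the single treatments.

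Among 19 NF-kB subunits and inhibitors, 6 had a negative interaction (9.13% of all genes) and Nfkbiz a positive one (9.27%), and 6 lay above both (3.32%). The negative count was 4 without Ctrl_0h replicate 2. Tnfaip3, the A20 enzyme that ends NF-kB signalling (chr10:19000910-19015410), had 9.35, 5.41 and 8.03 CPM in Ctrl_0h, 72.0, 72.3 and 65.4 in IL_6h, 64.2, 67.4 and 63.3 in TNF_6h, and 241, 240 and 246 in IL_TNF_6h. Each single treatment raised it to a similar level and the combination lay far above both. The interaction was nevertheless negative, -1.30 ± 0.21. Nfkbia, the inhibitor IkB-alpha, was not called between TNF_6h (335 ± 6.94 CPM) and IL_TNF_6h (353 ± 22.1, adjusted p = 0.61), with an interaction of -0.67 ± 0.17. The subunit gene Nfkb1 had 263 ± 2.92 CPM in IL_6h, 147 ± 2.17 in TNF_6h and 489 ± 12.8 in IL_TNF_6h. Its interaction of 0.40 ± 0.16 was not called with all libraries (adjusted p = 0.088) and was called without Ctrl_0h replicate 2 (adjusted p = 0.0056). Tnfrsf1b, the second TNF receptor, was above both with 1793 ± 120 CPM, against 1068 ± 54.7 in IL_6h and 807 ± 20.3 in TNF_6h, and had -1.11 ± 0.16.

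**Figure D3:**
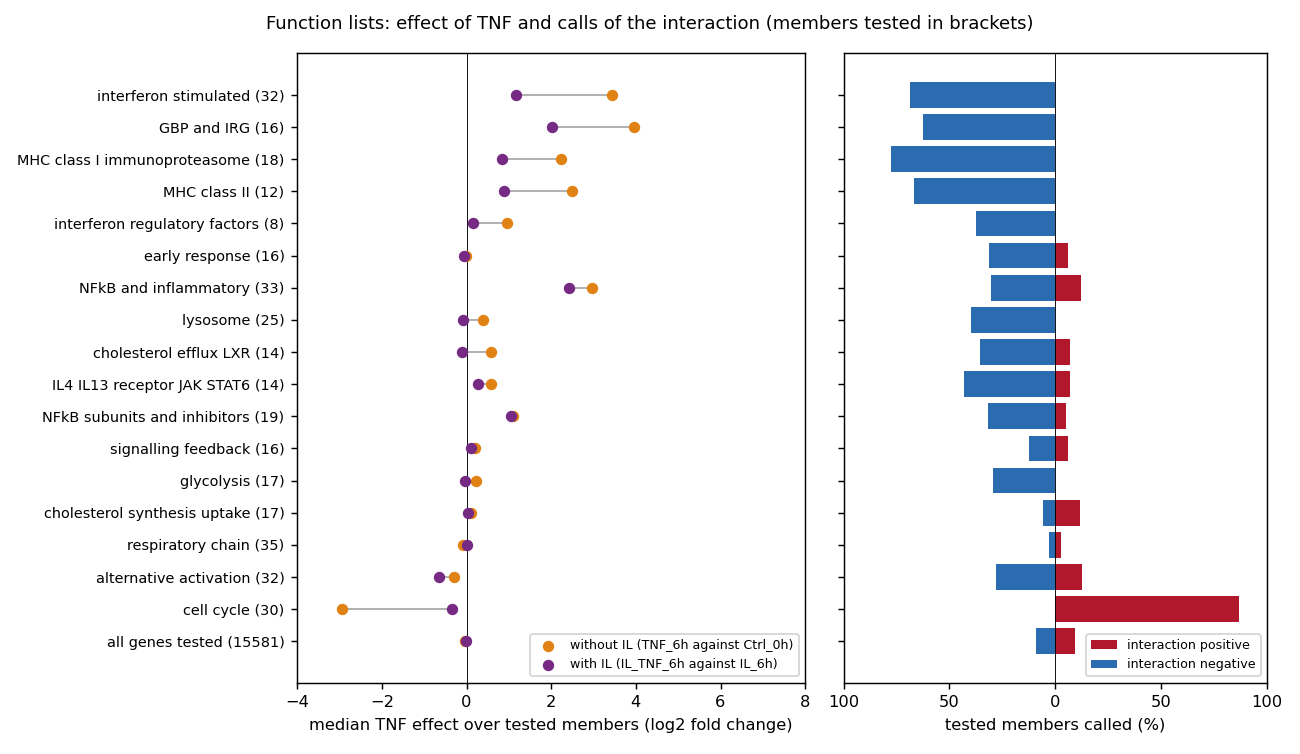
For 17 lists of genes by function and for all genes tested, the left panel plots the median TNF effect (log2 fold change) without IL and with IL, and the right panel the share of tested members with a positive or negative interaction. The interferon-stimulated list has 22 negative calls among 32 members, and the cell cycle list 26 positive calls among 30.

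A place above or below both single treatments and an interaction are different measures. Of 517 genes above both (3.32%), 150 had a positive interaction (29.0%, against 9.27% of all genes), 63 a negative one (12.2%, against 9.13%) and 304 neither. Of 473 genes below both (3.04%), 152 had a negative interaction (32.1%), 34 a positive one and 287 neither. Another 588 genes (3.77%) lay between, 278 above IL_6h and 310 above TNF_6h. The largest class, 7325 genes, differed from TNF_6h and not from IL_6h, while 615 differed from IL_6h alone and 6063 from neither. Of the comparisons behind these classes, IL_TNF_6h against TNF_6h crosses the library sets that Ifi202b marks and IL_TNF_6h against IL_6h does not. The part of the sets in these counts was not tested.

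**Figure D4:**
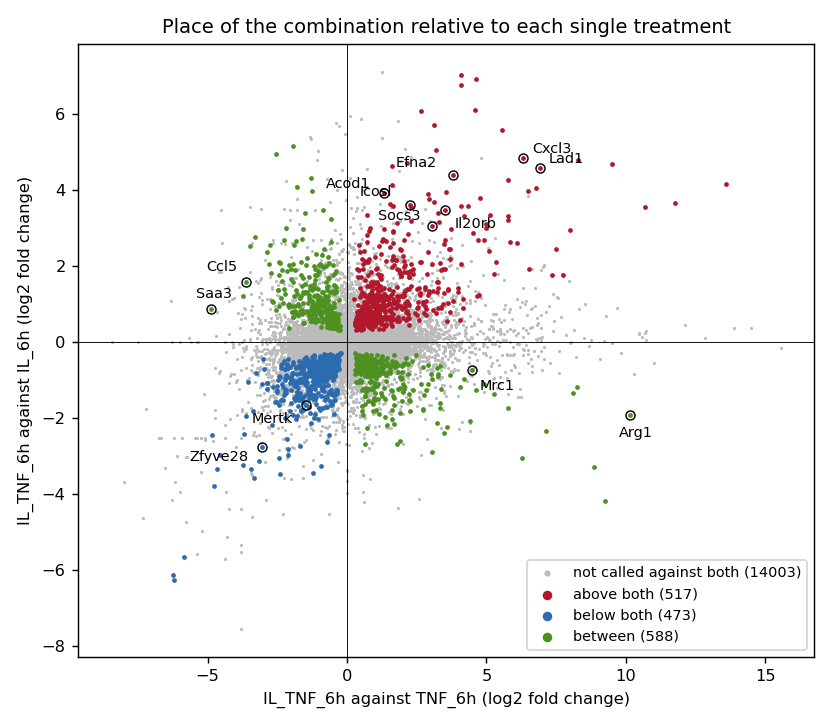
Level of IL_TNF_6h against IL_6h (y axis) and against TNF_6h (x axis), both as log2 fold changes, for each gene tested. The x axis crosses the library sets that Ifi202b marks. The upper right holds the 517 genes called above both single treatments, the lower left the 473 called below both, and the other corners the 588 between.

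Icosl, the ligand of the T cell co-stimulator ICOS (ENSMUSG00000000732, chr10:78069368-78079525), was above both with a small spread. It had 17.5, 14.8 and 15.6 CPM in Ctrl_0h, 4.82, 4.73 and 5.89 in IL_6h, 12.5, 13.2 and 13.4 in TNF_6h, and 61.7, 62.7 and 62.1 in IL_TNF_6h. Both single treatments had lower means than the control and the combination was higher than every other library. The interaction was 3.89 ± 0.23 (adjusted p = 2e-09). Il20rb, a chain of the receptors for IL-20 family cytokines (ENSMUSG00000044244, chr9:100457719-100486473), had 2.14, 1.83 and 2.32 CPM in Ctrl_0h, 4.15, 3.95 and 3.42 in IL_6h, 3.52, 3.16 and 4.43 in TNF_6h, and 47.3, 43.8 and 36.5 in IL_TNF_6h. The single treatments overlapped each other and lay far below the combination. The interaction was 2.65 ± 0.23.

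Socs3, the inhibitor of JAK signalling by cytokine receptors (ENSMUSG00000053113, chr11:117966079-117970336), was high in the combination alone. It had 4.70, 16.5 and 5.25 CPM in Ctrl_0h, 11.4, 7.70 and 9.77 in IL_6h, 9.08, 11 and 8.77 in TNF_6h, and 90.7, 90.1 and 57.5 in IL_TNF_6h. The 9 libraries without the combination overlapped, and Ctrl_0h replicate 2 was the highest of its group. The interaction was 2.91 ± 0.47, and 2.09 without that library (adjusted p = 3.7e-05). Among 16 genes of signalling feedback Socs3 was the only positive call, beside 2 negative ones, shares near the 9.27% and 9.13% of all genes. Socs1 had 43.2 ± 10.5 CPM in IL_6h and 68.2 ± 11.9 in IL_TNF_6h, not called different (adjusted p = 0.248), and its interaction of -0.11 ± 0.48 was not called.

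Ccl22, a chemokine for regulatory and helper T cells (chr8:94745684-94751388), had 0.347, 1.18 and 0.392 CPM in Ctrl_0h, 9.01, 9.03 and 8.10 in IL_6h, 1.54, 1.37 and 1.51 in TNF_6h, and 84.6, 79.9 and 75.3 in IL_TNF_6h. No groups overlapped, and the combination was the highest. The interaction was 1.96 ± 0.34, and 1.2 without Ctrl_0h replicate 2 (adjusted p = 0.0081). Its neighbour Ccl17, which binds the same receptor (chr8:94809380-94812038), had 1.35, 0.526 and 0.862 CPM in IL_6h, 0 counts in TNF_6h and 12.2, 11.4 and 11.1 CPM in IL_TNF_6h. The combination was at least 357-fold higher than TNF_6h, against a floor of 3 counts summed over its libraries, and the interaction has no usable value with the control near 0. Fscn1, an actin bundler, and Efna2, an ephrin ligand, had 19.2 ± 2.75 and 21.4 ± 4.21 CPM in IL_TNF_6h and at most 2.17 in each library of the single treatments. Their interactions of 4.92 and 5.09 fell to 2.16 and 3.33 without Ctrl_0h replicate 2, which had 5.31 and 6.09 CPM, and remained called. Markers of dendritic cells, in which Ccl17, Ccl22 and Fscn1 are also known, summed to 24.3 to 33.4 CPM in IL_TNF_6h, 29.0 to 40.6 in IL_6h, 7.30 to 8.11 in TNF_6h and 10.1 to 28.4 in Ctrl_0h. Cd209a was at 0 in IL_TNF_6h, and the part of such cells was not tested.

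For 5 other genes above both, the call of the positive interaction was lost without the same control library. Lad1, an anchoring filament protein, had 168, 153 and 128 CPM in IL_TNF_6h, at most 6.85 in IL_6h and at most 1.34 in TNF_6h. Its interaction went from 3.43 to 1.36 without Ctrl_0h replicate 2 (adjusted p = 0.21), which had 1.52 CPM against 0.107 and 0.163. Cxcl3, a neutrophil chemokine, went from 4.03 to 1.94, the matrix protease Mmp25 from 5.12 to 0.05, the retroelement-derived gene Peg10 from 4.59 to 3.57 and the carbonic anhydrase Car2 from 2.36 to 0.53, and none of these stayed called. The call of Car2 was also lost in the fit to the 12 libraries alone. The fold changes that place these 5 genes above both single treatments do not use the control, but it enters the shared estimate of spread. Without Ctrl_0h replicate 2, 624 genes were called above both, and 517 with all libraries. Apol7c, another apolipoprotein L, had 12.7, 12.4 and 11.3 CPM in IL_6h, 4.69, 4.12 and 3.75 in TNF_6h, and 228, 223 and 241 in IL_TNF_6h. Its interaction of -1.36 ± 0.79 was not called (adjusted p = 0.25). Both single effects were also large, against a control of 0.0854 ± 0.105 CPM. Without Ctrl_0h replicate 2 the interaction was -2.75 and not called (adjusted p = 0.118), and 1 of 21 alternatives called it. Hdc, which makes histamine, had 28.8 ± 4.08 CPM in IL_TNF_6h against 2.73 ± 0.0675 in IL_6h and 2.97 ± 0.507 in TNF_6h, and 0.45 ± 0.45 (adjusted p = 0.531).

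Below both single treatments lay Mertk, the receptor by which macrophages clear dying cells (ENSMUSG00000014361, chr2:128698915-128803162). It had 21.9, 14.7 and 20.8 CPM in Ctrl_0h, 32.0, 35.0 and 31.4 in IL_6h, 27.2, 27.4 and 31.5 in TNF_6h, and 11, 8.56 and 11.4 in IL_TNF_6h. Each single treatment stood above the control and the combination below it, neither overlapping it. The interaction was -2.25 ± 0.23 (adjusted p = 1.59e-06). Bmf, a death-promoting member of the Bcl-2 family, was also lowest in the combination, with 17.0 ± 3.47 CPM in Ctrl_0h, 18.8 ± 1.01 in IL_6h, 25.1 ± 1.45 in TNF_6h and 6.20 ± 0.447 in IL_TNF_6h, and had -2.16 ± 0.22. Zfyve28, an endosomal regulator of growth factor receptors, had 39.1, 37.3 and 40.7 CPM in Ctrl_0h, 20.5, 14.6 and 19.6 in IL_6h, 19.2, 23.8 and 24.3 in TNF_6h, and 3.05, 3.14 and 1.87 in IL_TNF_6h. Here each single treatment lowered the level and the combination lay below the product, with an interaction of -1.96 ± 0.22. Arhgap19, a GTPase activator, and Mical1, an actin-oxidising enzyme, had -1.37 ± 0.22 and -1.14 ± 0.31. Cracr2b, Cdc25b and Arhgap18 were also below both, with interactions of -0.25, 0.37 and 0.07, none of them called.

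In a few genes TNF_6h against Ctrl_0h, which carries 6 h in culture, and IL_TNF_6h against IL_6h were called in opposite directions. Ptger2, a receptor for prostaglandin E2, rose by 0.97 without IL, to 4.82 ± 1.06 CPM, and fell from 20.9 ± 1.31 in IL_6h to 9.55 ± 1.39 in IL_TNF_6h. Cblb, a ubiquitin ligase that limits immune signalling, had 253 ± 40.1 CPM in IL_6h, 52.5 ± 1.25 in TNF_6h and 146 ± 15.0 in IL_TNF_6h, with an interaction of -1.47 ± 0.24. Tmem51, Scd2 (a fatty acid desaturase) and Got1 (an aspartate aminotransferase) were others of this kind, with -2.07, -1.82 and -1.46.

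In the other direction Pf4, a platelet and macrophage chemokine (chr5:90772435-90773383), had 83.5, 94.1 and 81.7 CPM in Ctrl_0h, 30.5, 23.3 and 28 in IL_6h, 34.5, 28.3 and 29.8 in TNF_6h, and 65.8, 62.4 and 66.7 in IL_TNF_6h. Each single treatment lay below the control at 0 h, and the combination lay between them and the control. The interaction was 2.74 ± 0.28. Rac3, a small GTPase of the cytoskeleton, had 19.9 ± 1.03 CPM in Ctrl_0h, 13.6 ± 3.74 in IL_6h, 4.21 ± 0.433 in TNF_6h and 28 ± 3.49 in IL_TNF_6h, with 3.29 ± 0.33. Syne2, a linker of nucleus and cytoskeleton, had 18.1 ± 0.210 CPM in IL_TNF_6h against 10.4 ± 1.23 in Ctrl_0h, 5.16 ± 1.05 in IL_6h and 4.03 ± 0.700 in TNF_6h, with 3.18 ± 0.30.

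All 30 cell cycle genes tested were lower in TNF_6h and in IL_6h than in Ctrl_0h (20.5% and 31.6% of all genes). Of the 30, 26 had a positive interaction, where 9.27% of all genes did, with a median of 2.39. The count was 26 without Ctrl_0h replicate 2 and 17 without the 3 deviating libraries. Tk1, the thymidine kinase of DNA synthesis (chr11:117815519-117826087), had 273, 290 and 296 CPM in Ctrl_0h, 12.7, 10.3 and 14.0 in IL_6h, 14.1, 16.3 and 14.1 in TNF_6h, and 20.8, 20.4 and 15.2 in IL_TNF_6h. The fall from the control was about as deep in each treated group, so that the 2 effects did not multiply. The interaction was 4.88 ± 0.33, while the combination was called different from neither single treatment (adjusted p = 0.0883 and 0.214). Top2a, the topoisomerase of dividing cells, had 227 ± 32.3 CPM in Ctrl_0h, 11.9 ± 2.40 in IL_6h, 25.4 ± 4.34 in TNF_6h and 10.1 ± 2.18 in IL_TNF_6h, with 2.92 ± 0.61.

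Mki67, the proliferation antigen (chr7:135689784-135716450), was the only cell cycle gene above both. It had 205, 197 and 223 CPM in Ctrl_0h, 22.8, 36.4 and 24.6 in IL_6h, 19.9, 26.7 and 18.9 in TNF_6h, and 49.4, 55.2 and 76.9 in IL_TNF_6h. The combination exceeded each library of the single treatments and stayed far below the control. The interaction was 4.37 ± 0.45. The mitotic motor Kif4 and the separase Espl1 were likewise raised by TNF only with IL, with 4.47 ± 1.64 CPM against 1.64 ± 0.643 in IL_6h, and 10.0 ± 1.5 against 4.38 ± 0.569. Pcna and Mcm6, of the replication fork, lay below both. Outside the list Hmgb3, Mxd3, Mybl2, Hcn2, Arhgap33 and Dmpk had interactions of 4.03 to 5.08, each with its highest level in Ctrl_0h. The sum of B cell markers was also highest in Ctrl_0h, with 85.1 to 97.3 CPM there and 6.61 to 11.9 in the treated groups. Ighm made 84.2 ± 11.4 CPM of it in Ctrl_0h, and Blk was at 0 in the treated groups. The members did not all go the same way. Of the 4 tested, 2 were lower and 1 higher in TNF_6h than in Ctrl_0h, and likewise in IL_6h. The interaction was positive in 2 and negative in 1, and 1 lay above both single treatments. The part of such cells, like that of the 6 h in culture, was not tested.

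Of 14 components of the IL-4 and IL-13 pathway tested, 6 had a negative interaction, where 9.13% of all genes did, and Stat5a a positive one. The negative count was 5 without Ctrl_0h replicate 2. Without the 3 deviating libraries 6 were negative and 0 positive, and with the reference kept 4 and 1. The receptor chain Il4ra had 63.2 ± 11.7 CPM in IL_TNF_6h, 59.6 ± 10.9 in IL_6h and 76.1 ± 4.10 in TNF_6h, with 0.03 ± 0.21. Stat6 had mean levels of 303 CPM with IL, 258 with TNF and 277 with all 3 cytokines, with an interaction of -0.66 (adjusted p = 0.02). Il2rg, the common gamma chain of the type I receptor, lay between with 144 ± 18.7 CPM against 287 ± 22.3 in TNF_6h and 86.1 ± 9.48 in IL_6h, and had -2.13 ± 0.19. Jak2, Tyk2 and Stat5a lay above both. Jak2 had 93.2, 129 and 97.5 CPM in IL_6h, 58.6, 63.6 and 56.5 in TNF_6h, and 261, 275 and 338 in IL_TNF_6h, with an interaction of -0.73 ± 0.22.

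Of 32 tested genes of alternative activation, 9 had a negative interaction, where 9.13% of all genes did, and 4 a positive one, a share near the 9.27% of all genes. Their median was 0.06 with all libraries and -1.03 without Ctrl_0h replicate 2. The fold changes behind placement do not use the control: 9 lay between the single treatments and above TNF_6h, where 1.99% of all genes did. Arg1, which breaks down arginine (chr10:24915207-24927470), had 241, 232 and 271 CPM in IL_6h, 68.2, 58.8 and 67.9 in IL_TNF_6h and at most 0.107 in the other 6 libraries. The TNF effect with IL was -1.93 ± 0.23. Retnla, a secreted product of these cells, had 44.7, 35.2 and 30.3 CPM in IL_6h, 1.34, 1.85 and 2.83 in IL_TNF_6h, and 0 counts in the 6 others, a TNF effect of -4.18 ± 0.45 with IL. Chil3, a chitinase-like lectin, had 17.5 ± 1.66 and 6.91 ± 0.810 CPM. The interaction of these 3 rests on controls at or near 0 and was not called with all libraries. Without Ctrl_0h replicate 1, the only control library with counts of Arg1, the log2 interaction of Arg1 went from -2.31 to -6.04 and was called (adjusted p = 0.0423).

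Mrc1, the mannose receptor (ENSMUSG00000026712, chr2:14229414-14332023), had 185, 125 and 173 CPM in Ctrl_0h, 964, 1191 and 975 in IL_6h, 26.9, 29.2 and 26.0 in TNF_6h, and 578, 551 and 724 in IL_TNF_6h. No groups overlapped, and the TNF effect was -2.56 without IL and -0.76 with IL. The interaction was 1.80 ± 0.21. Egr2, a transcription factor induced by IL-4, had 240 ± 11.9 CPM in IL_6h and 216 ± 23.3 in IL_TNF_6h, not called different (adjusted p = 0.679), and -1.49 ± 0.22. Clec7a, the receptor for fungal glucans, had 635 ± 74.4 and 639 ± 68.5 CPM and -1.69 ± 0.18. The lipid regulator Pparg and the lectin Clec10a lay below both, with 33.3 ± 1.64 and 4.28 ± 0.534 CPM in IL_TNF_6h and interactions of -1.11 ± 0.19 and -0.87 ± 0.18. Il1rn, the antagonist of IL-1, lay above both with 150 ± 18.3 CPM against 44.6 ± 3.40 in IL_6h and 63.8 ± 2.98 in TNF_6h, and -1.69 ± 0.19.

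**Figure D5:**
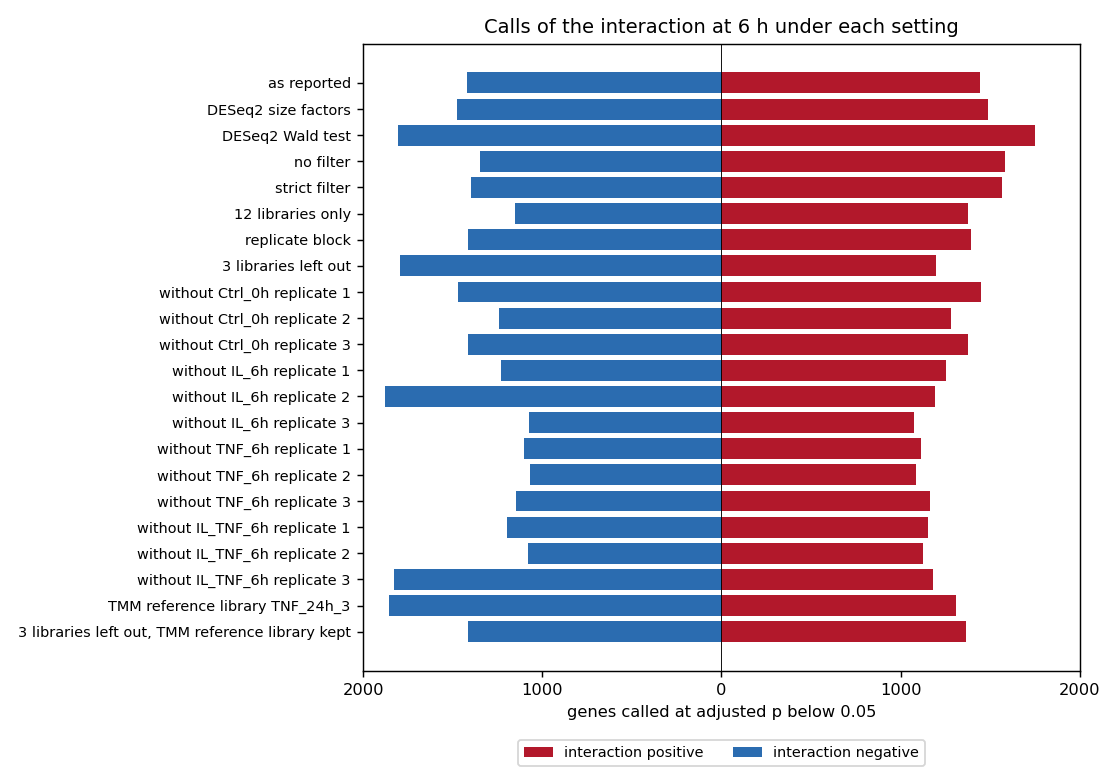
Number of genes with a positive (right) and negative (left) interaction at an adjusted p below 0.05 for the reported analysis, its alternatives and each of the 12 libraries left out. The reported bars are 1444 and 1422; the bars lean to the negative side, up to 1877, where TNF_24h replicate 3 becomes the scaling reference.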

How the data were processed

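The deposited values are raw read counts for each gene, unscaled whole numbers. The tools named in the submitters' processing notes are edgeR 3.28.1, featureCounts from Subread 1.6.3 and TopHat2 2.0.12, with build GRCm38. How strand, read pairs and annotation were handled is not stated there, so overlapping genes can share reads and fragments may count once per mate.

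Computed here with R 4.3.3 and edgeR 4.0.16: genes were filtered with filterByExpr (15581 of 32292 with a count), libraries scaled by TMM, and a model with 1 term per group fitted to all 21 libraries. Each contrast had a quasi-likelihood F test, and p values adjusted by Benjamini and Hochberg over all genes. Standard errors are the log2 value over the square root of F. Common biological variation was 22.8%. Symbols, positions and promoters come from RefSeq tables of GRCm38.p6. A symbol was found for 32832 of 47069 identifiers.

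Named genes are the 12 highest and 12 lowest interactions called with and without Ctrl_0h replicate 2 (at least 10 CPM in the highest and 0.5 CPM in each group), the 12 furthest above and below both single treatments (at least 10 CPM in the higher levels, no overlap), the 6 largest opposite TNF effects each way, and 20 markers. Other list members are named as examples picked with their values in view. Members, lists and rules were chosen with earlier results of these data known. Samples were grouped by their labels. Replicate numbers did not pair samples: same-numbered libraries of different groups correlated between -0.31 and 0.36 in their deviations, and the strongest value was 0.58, between IL_6h replicate 2 and IL_TNF_6h replicate 3. Simulated interactions of 2-fold and 4-fold over 15581 genes were recovered in 59 and 100 of 100, with 5 of 164 calls false. In the simulation 200 genes were changed and scatter was drawn independently in each library, with no library deviating across many genes. The share of false calls among the calls in these data is therefore not measured by it. The changed genes had an expected level of at least 5 CPM in each of the 4 groups, so the recovery does not cover lower genes. Alternatives were DESeq2 1.42.0 (size factors and Wald test), no filter, a stricter filter (1 CPM in 3 libraries), a fit to these 12 libraries alone, the replicate block, libraries left out, and, after seeing the data, another TMM reference. Some results that met these rules are not reported here.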

Additional observations from a re-analysis of the deposited data

How the results depend on the processing

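The counts of positive and negative interactions, of genes above and below both single treatments and of each single contrast stayed within 1.5 times the reported count under every alternative run, with ranges over the 12 left-out libraries of 1073 to 1447 (positive), 1072 to 1877 (negative), 374 to 624 (above both) and 336 to 559 (below both). Genes between the single treatments ranged from 351, without IL_TNF_6h replicate 2, to 694 around the reported 588. With DESeq2's Wald test 1748 interactions were positive and 1805 negative. The replicate block gave 1391 and 1415, and the replicate number pairs no samples, so the block is a check of the count only. Of the named genes' interactions under the alternatives, 1475 kept direction and call, 29 lost a call, 23 gained one and 22 changed sign, all among values that were not called. These signs changed in Chil3 (0.44 reported, -4.26 to 3.35 over left-out libraries, -4.29 without the 3 deviating libraries and -4.27 with the reference kept), Il6 (3.50, -0.32 to 6.88, -1.01 and -0.989), Socs1 (-0.11, -0.92 to 0.19), Il4ra (0.03, -0.18 to 0.17, and -0.035 with the other TMM reference) and Arhgap18 (0.07, -0.16 to 0.22, and -0.0002 with that reference); the cause was not tested. Rasgrp3 (-0.62) lost its call in 13 of 21 alternatives. Depth limits genes near 0 in Ctrl_0h, whose fold has no firm base.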

Other observations

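Of 35 respiratory chain genes tested, 1 had a positive and 1 a negative interaction, against 9.27% and 9.13% of all genes, and the median was 0.03. Most were lower in the libraries with IL: 31 fell in IL_TNF_6h against TNF_6h, where 27.5% of all genes did. In IL_6h against Ctrl_0h 28 fell, where 31.6% of all genes did. Both comparisons cross the library sets that Ifi202b marks, and the second carries 6 h in culture. The part of either was not tested. The median TNF effect with IL was 0.0011. Cox4i1, a subunit of cytochrome oxidase, had 643 ± 60.3 CPM in Ctrl_0h, 217 ± 46.3 in IL_6h, 678 ± 61.2 in TNF_6h and 228 ± 25 in IL_TNF_6h. Negative interactions, called in 9.13% of all genes, were found in 10 of 25 lysosomal genes and in 7 without Ctrl_0h replicate 2. Npc2, the lysosomal cholesterol carrier, had 3813 ± 286 CPM in TNF_6h and 1563 ± 165 in IL_TNF_6h, with -1.44 ± 0.24, and the protease Ctsz 6532 ± 607 and 2790 ± 604, with -1.37 ± 0.27.

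Of 10 macrophage identity genes 5 had a negative interaction, against 9.13% of all genes. Fcgr1, the high-affinity IgG receptor, had 713, 651 and 667 CPM in TNF_6h and 98.7, 102 and 104 in IL_TNF_6h, below the control of 169 ± 18.4, with -2.29 ± 0.69 (not called without Ctrl_0h replicate 2, adjusted p = 0.053). Among 17 glycolytic genes 5 were negative, against the same 9.13%, with Hk2 at -1.51 ± 0.23 and Pfkfb3 at -1.67 ± 0.26, and 0 were positive. The negative count was 4 without Ctrl_0h replicate 2. Without the 3 deviating libraries, with the reference kept, 6 were negative and 3 positive. In lipid metabolism the desaturases Scd1 and Scd2 lay below both single treatments, with -1.83 ± 0.29 and -1.82 ± 0.27, while the cholesterol exporter Abca1 lay above both at 216 ± 11.4 CPM with -0.18 ± 0.23 (not called). Jun, an early response factor, lay below both with 81.8 ± 12.7 CPM, against 179 ± 34.8 in IL_6h and 188 ± 12.4 in TNF_6h.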
